A study of Mus musculus with 12 samples.

Results

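Genes for antigen presentation on MHC class II were examined in mouse mammary tumors treated with a PARP inhibitor, a STING agonist or both. The genes were picked by symbol, with earlier results of these tumors known: H2-Aa, H2-Ab1, H2-Eb1, Cd74, H2-DMa, H2-DMb1, H2-DMb2 and Ctss, which are 8 of the 750 genes in the table. All 8 passed the filter on low values, together with 681 other genes. Chunks of K14-Cre;Brca1f/f;Trp53f/f tumors, whose epithelium lost Brca1 and p53 through a Cre driven by the keratin 14 promoter, were grown in female FVB/129P2 recipients of the same background after transplantation to the mammary fat pad. The deletion is thus shared by all groups and was not made in the recipients' own immune cells. Vehicle mice received DMSO in saline intraperitoneally and saline into the tumor. ADU-S100, a cyclic dinucleotide that activates STING, was injected into the tumor once on the first day, as 50 μg in 40 μl. Olaparib, which inhibits PARP enzymes, was given at 50 mg/kg intraperitoneally every day, and the combination mice received both drugs. Olaparib mice also received saline into the tumor, and ADU-S100 mice also received DMSO in PBS intraperitoneally. All tumors were taken at day 3, and 100 ng of RNA was hybridized to color-coded nCounter probes, which are counted without amplification. There were 3 tumors per group and 12 in all. The ages of the mice were not given in the sources used here.

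MHC class II molecules display peptides from engulfed proteins to CD4 T cells, and are made mostly by dendritic cells, macrophages and B cells, and by other cells after exposure to interferon-γ. H2-Aa and H2-Ab1 encode the alpha and beta chains of the I-A molecule, and H2-Eb1 encodes the beta chain of I-E. Only mRNA was measured, so that whether I-E protein is made in these tumors is not known here. Cd74, the invariant chain, escorts new class II molecules and blocks their groove, Ctss (cathepsin S) cuts the invariant chain down to a short fragment, and H2-DM, built from H2-DMa and a beta chain from H2-DMb1 or H2-DMb2, exchanges that fragment for peptide. Ciita is the coactivator that switches on the class II genes through conserved promoter boxes named X and Y.

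Those boxes could be read for part of the set, and they are shown here because the genes with and without them are compared below. RefSeq promoters (GRCm38.p6, 250 bases before to 50 after the start of the gene, on the strand of the gene) were at hand for 6 of the 8 genes, whereas H2-Ab1 and Cd74 had no sequence in that set. The letters searched were chosen after these sequences had been read, and both strands were searched. They were AAC and ATGATG with 2 bases of any kind between them for the X box, ATTGG for the Y box, TGACGTCA for a cyclic AMP response element, which is found beside the X box in class II promoters, and GAAA, 2 bases of any kind and GAAA for an interferon response element. An X box was found in 0.137% of 32851 promoters, a Y box in 37.4%, TGACGTCA in 1.79% and the interferon element in 3.44%. No 2 of the matches marked here overlapped. In only 4 promoters (0.0122%) an X box was followed on the same strand by a Y box within 5 to 30 bases, namely those of H2-Eb1, H2-DMb1, H2-DMb2 and H2-Ob. In the stretches below, capitals mark the X box and then the Y box in the first 3 sequences, and TGACGTCA and the Y box in the fourth. In the fifth they mark the interferon element.
H2-Eb1, chr17:34305766-34305824, plus strand: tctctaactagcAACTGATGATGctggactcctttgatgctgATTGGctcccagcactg
H2-DMb1, chr17:34153087-34153146, plus strand: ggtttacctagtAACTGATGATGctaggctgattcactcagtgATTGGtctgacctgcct
H2-DMb2, chr17:34145116-34145175, plus strand: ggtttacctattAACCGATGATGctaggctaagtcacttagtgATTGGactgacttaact
H2-Aa, chr17:34287855-34287920, minus strand: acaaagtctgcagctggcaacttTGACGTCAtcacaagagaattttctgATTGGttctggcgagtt
Ctss, chr3:95526741-95526798, plus strand: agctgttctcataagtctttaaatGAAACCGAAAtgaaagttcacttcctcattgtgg
The X and Y boxes were 19 bases apart in H2-Eb1 and 20 apart in both H2-DMb genes, and the stretches of H2-DMb1 and H2-DMb2 were the same at 51 of 60 bases (85%). H2-DMa held only an ATTGG, and Ctss, the protease, held neither an X nor a Y box by these letters. A match of letters is a description of the reference and not a measured binding site. These mice are FVB/129P2, and their own alleles were not read.

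The values are normalized mRNA counts, in which each tumor was scaled against housekeeping genes, and they are compared on the scale log2(normalized count + 1). The value of 1 count ranged from 0.589 in the olaparib tumor 1521 to 10.5 in the olaparib tumor 1517, and the counts recovered from the deposited values summed to between 106206 and 1519471 per tumor. The combination tumors had factors of 0.810 to 0.824. Nothing in the labels says whether the tumors of a group came from separate donor tumors, so that p-values measure only the spread between these samples. In whole tumors, more cells that make class II molecules and more mRNA per cell cannot be told apart. The tumors carry numbers that begin with 12 (the vehicle tumor 1269 and the combination tumors 1251 and 1270) or with 15 (the other 9), and what the numbers mean was not given. Epithelial marker sums, over 5 genes that include Epcam, ranged from 12101 to 26853 over all tumors.

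All 8 genes were higher in every combination tumor than in every vehicle tumor. The alpha and beta chains of I-A and the invariant chain showed log2 fold changes of 1.56 to 1.90, and the smallest change was 0.62, for H2-DMb1. In limma with Benjamini-Hochberg adjustment over the 689 genes, however, 0 of the 8 passed 0.05 against vehicle, as did 0 of all genes (0.0%), and 4 of the 8 had an unadjusted p below 0.05 against 7.69% of the genes tested. The counts of genes without overlap between groups are read against 18.4% of all genes that were higher in every combination than in every vehicle tumor. The median of the 8 log2 fold changes was 1.19, compared to 0.21 over all genes tested. Within the tumors whose numbers begin with 12, the 2 combination tumors exceeded the vehicle tumor by 0.94 (Ctss) to 2.28 (Cd74) on the log2 scale. Within those that begin with 15, the single combination tumor exceeded the mean of 2 vehicle tumors by 0.36 (H2-DMb1) to 1.61 (H2-Aa).

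**Figure D1:**
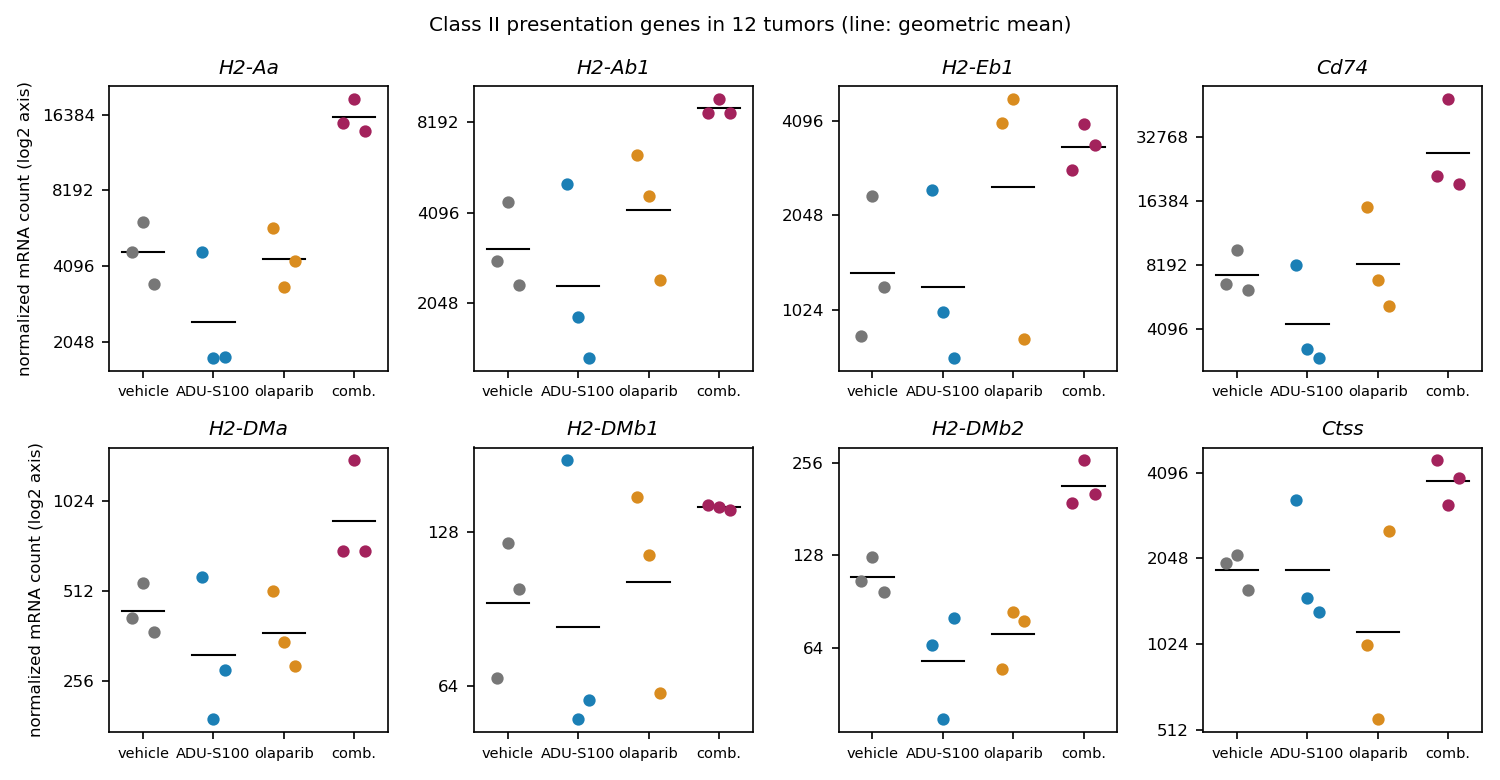
Normalized mRNA counts (vertical axes, logarithmic to base 2) of the 8 genes in each of the 12 tumors, by treatment (comb., combination), with 1 point per tumor and a line at the geometric mean of 3 tumors. The combination tumors lay above all 9 others for H2-Aa, H2-Ab1, Cd74, H2-DMa and H2-DMb2, and overlapped them for H2-Eb1, H2-DMb1 and Ctss.

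H2-Aa, the alpha chain of I-A, was measured at 15231, 18905 and 14123 normalized counts in the combination tumors 1251, 1270 and 1539. Vehicle tumors had 4678 (1269), 6164 (1529) and 3474 (1536). It was lowest with ADU-S100, at 4683 (1506), 1770.2 (1512) and 1789 (1513), and olaparib tumors had 5796 (1510), 3385 (1517) and 4288 (1521). The lowest combination tumor thus exceeded the highest other tumor (14123 against 6164), while the 3 other groups overlapped. The log2 fold change relative to vehicle was 1.78 (95% interval 0.78 to 2.78, limma adjusted p = 0.278). It was 2.70 relative to ADU-S100 (1.70 to 3.70, adjusted p = 0.0624) and 1.86 relative to olaparib (0.86 to 2.87, adjusted p = 0.463). Without the ADU-S100 tumor 1506, the highest of its group, the change against ADU-S100 was 3.16 and passed the limma threshold (adjusted p = 0.0123), as the single gene to do so (0.145%). The study itself selected H2-Aa, H2-Ab1 and Cd74 on these tumors, so that their direction is no independent evidence.

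H2-Ab1, the partner chain, was less spread in the combination, at 8758 (1251), 9775 (1270) and 8812 (1539). Its vehicle values were 2830.1 (1269), 4447 (1529) and 2346 (1536). ADU-S100 tumors had 5096 (1506), 1837 (1512) and 1347 (1513) and olaparib tumors had 6355 (1510), 4642 (1517) and 2451 (1521). The combination again lay above all 9 others, although the gap was narrower than for H2-Aa (8758 against 6355). The coefficient of variation was 6.28% in the combination and 34.3% to 73.8% in the other groups. Relative to vehicle, ADU-S100 and olaparib, the log2 fold changes were 1.56, 1.97 and 1.13, with limma adjusted p-values of 0.436, 0.492 and 0.594.

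H2-Eb1, the beta chain of I-E, did not follow this order. Its 2 highest values were those of the olaparib tumors 1517 (4799.6) and 1510 (4017), and the third olaparib tumor, 1521, was the second lowest of all at 822. Combination tumors had 2846 (1251), 3990.2 (1270) and 3417 (1539), vehicle tumors 844 (1269), 2347.5 (1529) and 1207 (1536), and ADU-S100 tumors 2461 (1506), 1004 (1512) and 718 (1513). The combination was thus above all vehicle and ADU-S100 tumors, and between the olaparib tumors. Against olaparib the log2 fold change was 0.43 (95% interval -1.11 to 1.97, limma adjusted p = 0.85). With single tumors left out it ranged from -0.38, without tumor 1521, to 0.90. Tumor 1517, which had the highest value, also had the lowest sum of recovered counts (106206) and a scaling factor of 10.5. Against vehicle the log2 fold change was 1.34 (-0.20 to 2.88, adjusted p = 0.673).

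Cd74, the invariant chain, was measured at 21484 (1251), 49444 (1270) and 19764 (1539) in the combination, above all other tumors. The next tumor was the olaparib tumor 1510 at 15446, followed by the vehicle tumor 1529 at 9698. The remaining values were 6695 (1269) and 6254 (1536) for vehicle, 8246 (1506), 3307 (1512) and 3006 (1513) for ADU-S100, and 7011 (1517) and 5252 (1521) for olaparib. A single tumor, 1270, set much of the spread in the combination, where the coefficient of variation was 55.1%. Its log2 fold changes were 1.90, 2.67 and 1.74 in the same order, and the limma adjusted p-values were 0.278, 0.132 and 0.594.

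For the peptide exchange factor H2-DM, the chains were measured one by one. H2-DMa, the alpha chain, was measured at 695 (1251), 1401 (1270) and 697 (1539) in the combination and from 191 to 569.7 in the 9 others, with no overlap. Vehicle tumors had 375, 416 and 544, ADU-S100 tumors 191, 279.7 and 569.7, and olaparib tumors 288, 346 and 512. The log2 fold changes of H2-DMa were 0.998, 1.49 and 1.24 (limma adjusted p = 0.652, 0.492 and 0.594). As for Cd74, tumor 1270 stood above the other combination tumors.

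H2-DMb2, a beta chain of H2-DM, was above all others in the combination at 190.4 (1251), 261 (1270) and 203 (1539). Vehicle tumors were next, with 106 (1269), 126 (1529) and 97.0 (1536). Both monotherapies lay below the vehicle tumors without overlap, at 65.5 (1506), 37.3 (1512) and 79.9 (1513) with ADU-S100 and at 54.6 (1510), 83.8 (1517) and 78.4 (1521) with olaparib. H2-DMb2 was the only one of the 8 genes lower in every tumor of a single treatment than in every vehicle tumor, which 1.02% of all genes showed for ADU-S100 and 1.02% for olaparib. Its log2 fold change was -0.90 for ADU-S100 against vehicle (95% interval -1.74 to -0.05, limma adjusted p = 0.809) and -0.61 for olaparib (-1.46 to 0.24, adjusted p = 0.582). In the combination it was 0.98, 1.88 and 1.59 relative to vehicle, ADU-S100 and olaparib (limma adjusted p = 0.472, 0.132 and 0.463), and without the olaparib tumor 1521 the last passed (1.66, limma adjusted p = 0.0359), as did 7.84% of all genes. This gene had the lowest p of all 689 genes against olaparib and the second lowest against ADU-S100. The value of tumor 1517 rests on 8 recovered counts, which gives an exact Poisson 95% interval of 36.2 to 165 normalized counts for counting error alone.

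H2-DMb1, the neighboring paralog with the similar promoter stretch shown above, was measured in the combination at 144 (1251), 143 (1270) and 141 (1539). The coefficient of variation was 1.16%. No value of this gene rests on more than 178 recovered counts, so that a spread this small lies below counting error. The highest tumors were the ADU-S100 tumor 1506 at 177 and the olaparib tumor 1510 at 150.0. The other values were 66.2, 99.1 and 122 for vehicle, 55.0 and 59.9 for ADU-S100, and 61.9 and 115 for olaparib. The combination was above the vehicle tumors, and it overlapped both single treatments. Its log2 fold changes were 0.62, 0.77 and 0.48 (limma adjusted p = 0.946, 0.606 and 0.752). The H2-DMb probes face transcripts of closely related genes, and whether 1 probe also counts the other transcript was not tested. H2-DMb1 rests on 11 recovered counts in tumor 1517.

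Ctss, the protease, was measured at 4528 (1251), 3150.1 (1270) and 3929 (1539) in the combination. Vehicle tumors had 1971 (1269), 2101 (1529) and 1579 (1536), and olaparib tumors had 1019 (1510), 555 (1517) and 2556 (1521). The ADU-S100 tumor 1506, at 3278, was the single tumor above the lowest combination tumor, and the other ADU-S100 tumors had 1489 (1512) and 1323 (1513). Tumor 1270, the highest for Cd74 and H2-DMa, was the lowest combination tumor for Ctss. The log2 fold changes were 1.03, 1.04 and 1.76 relative to the vehicle, ADU-S100 and olaparib groups (limma adjusted p = 0.686, 0.544 and 0.594). The olaparib tumor 1521 was the highest of its group, and without it Ctss passed against olaparib (2.35, limma adjusted p = 0.0287), as did 7.84% of all genes.

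**Figure D2:**
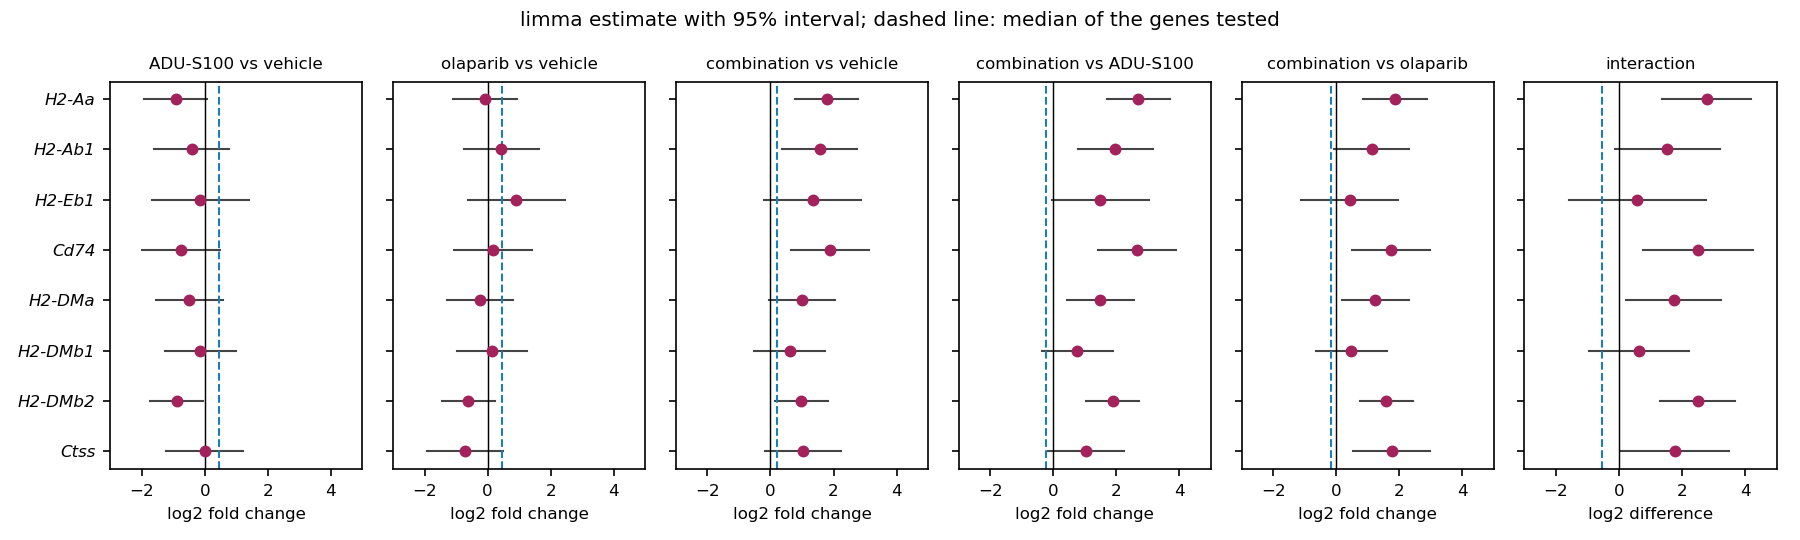
Log2 fold changes of the 8 genes (horizontal axes) in 5 comparisons and the interaction, as limma estimates with 95% intervals over 12 tumors, with a dashed line at the median of the 689 genes tested. In the 3 comparisons of the combination and in the interaction all 8 points lay above 0, and in ADU-S100 against vehicle all 8 lay below 0 while the median of all genes was 0.44.

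Against the single treatments the same direction was seen for all 8 genes, from 0.77 to 2.70 against ADU-S100 and from 0.43 to 1.86 against olaparib. Every combination tumor exceeded every ADU-S100 tumor for 6 of the 8 genes (10.4% of all genes did so) and every olaparib tumor for 6 of the 8 (11.0%). H2-DMb1 was left out both times, Ctss against ADU-S100 and H2-Eb1 against olaparib. In limma 0 genes passed the adjusted threshold against ADU-S100 (0.0%) or olaparib (0.0%), and 5 of the 8 had an unadjusted p below 0.05 in each, beside 9.14% and 7.26% of all genes. Medians over the 8 genes were 1.68 and 1.42, where all genes had -0.22 and -0.15. All these comparisons share the combination tumors. The single treatments have only tumors numbered from 15, and the 1 combination tumor of that series exceeded the mean of each by 0.44 or more for all 8 genes.

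The 5 genes H2-Aa, H2-Ab1, Cd74, H2-DMa and H2-DMb2 were higher in each of the 3 combination tumors than in each of the 9 others, a pattern shown by 22 of the 689 genes (3.19%). When the combination was set against the mean of the 3 other groups, 6 of the 8 genes had an unadjusted p below 0.05 (9.43% of all genes) and 0 an adjusted one (0.0% of all genes), with H2-Aa closest at 2.11 (95% interval 1.30 to 2.93, limma adjusted p = 0.0892). It passed without the ADU-S100 tumor 1506 (2.27, limma adjusted p = 0.0173), as the single gene of 689 (0.145%). With each tumor's log2 scaling factor added to the model, 4 of the 8 passed in this comparison, namely H2-Aa, H2-Ab1, Cd74 and H2-DMb2, beside 12 of all 689 genes (1.74%).

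On unlogged counts, the one-way comparison with Holm-Sidak adjustment that the methods name gave 6 of the 8 genes below 0.05 against each of vehicle, ADU-S100 and olaparib, beside 4.93%, 5.08% and 3.77% of all genes. H2-Eb1 and H2-DMb1 did not pass. That test is not adjusted over the panel, and after Benjamini-Hochberg adjustment of its p-values 0, 2 and 0 of the 8 genes remained, the 2 being H2-Aa and H2-DMb2 against ADU-S100. Over all genes this left 0.0%, 0.29% and 0.0%, so that these 2 were the only genes.

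No class II gene passed the test with either drug alone. With ADU-S100 all 8 log2 fold changes were below 0, from -0.92 for H2-Aa to -0.01 for Ctss, with a median of -0.45, whereas 78.2% of all genes were above 0. The shift of all genes moved with the scaling: the ADU-S100 tumors had factors of 1.43 to 2.85, and over the 12 tumors the median r of all genes with the log2 scaling factor was 0.59, while the 8 genes ranged from -0.67 (Ctss) to 0.44 (H2-Eb1). The part of the scaling in these values was not tested. No gene passed the adjusted threshold in limma (0.0%), and of the 8 genes only H2-DMb2 had an unadjusted p below 0.05 (4.79% of all genes). The tumor 1506 had the highest value of its group for 7 of the 8 genes, and without it the median was -0.95. The signs for Ctss, H2-Eb1 and H2-DMb1 changed with single tumors left out. With olaparib 4 genes were above vehicle (H2-Eb1, H2-Ab1, Cd74 and H2-DMb1) and 4 below, with a median of 0.03 and a range from -0.72 for Ctss to 0.91 for H2-Eb1. Here too 0 genes passed in limma (0.0%), and 0 of the 8 were below an unadjusted p of 0.05, beside 7.26% of all genes. For Cd74 and H2-DMb1 the sign turned below 0 with median scaling, with quantile normalization and relative to Ptprc.

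The interaction, or how far the response to ADU-S100 differed between mice with and without olaparib, was above 0 for all 8 genes, whereas 30.9% of all genes were above 0 and their median was -0.55. It was 2.78 for H2-Aa (95% interval 1.37 to 4.20), 2.50 for Cd74 (0.76 to 4.25) and 2.49 for H2-DMb2 (1.29 to 3.69) on the log2 scale. H2-DMa (1.73) and Ctss (1.76) followed, and the intervals of H2-Ab1, H2-Eb1 and H2-DMb1 included 0. In limma 5 of the 8 had an unadjusted p below 0.05 (10.9% of all genes), and 0 genes passed after adjustment (0.0%), with 0.346 as the lowest adjusted value of the 8. Without the olaparib tumor 1521, H2-Aa, H2-DMb2 and Ctss passed, beside 12.5% of all genes, and the value of H2-Eb1 turned to -0.23.

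Within each tumor, the genes of the pathway were then set against each other, since a ratio within a tumor does not depend on its scaling. The level of 1 probe cannot be set against that of another, and ratios are compared only between tumors. H2-Aa over H2-Ab1 in tumors 1251, 1270 and 1539 of the combination was 1.74, 1.93 and 1.60, and in the vehicle tumors 1269, 1529 and 1536 it was 1.65, 1.39 and 1.48. With ADU-S100 it was 0.919, 0.964 and 1.33 in tumors 1506, 1512 and 1513, and with olaparib it ranged from 0.729 (1517) to 1.75 (1521). On the log2 scale the difference of ADU-S100 from vehicle was -0.51 (limma adjusted p = 0.517) and that of the combination from the other 3 groups was 0.56 (limma adjusted p = 0.21).

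H2-DMb1 over H2-Ab1 was lower in the combination (0.0147 to 0.0165) than in all 9 other tumors (0.0234 to 0.0445). The share of all genes whose ratio to H2-Ab1 was separated in this way was not computed. On the log2 scale the difference was -1.20 against ADU-S100 (limma adjusted p = 0.0315) and -0.93 against the other 3 groups (adjusted p = 0.0441). It was the single ratio to H2-Ab1 that passed among the 7 other genes, but relative to H2-Ab1 80.1% of the genes passed against ADU-S100 and 69.3% against the other 3 groups, because H2-Ab1 itself was higher. The H2-DMb2 to H2-DMb1 ratio averaged 1.53 ± 0.26 for the combination (SD, n = 3 tumors), 1.20 ± 0.34 for vehicle, and 0.79 with either ADU-S100 (SD 0.49) or olaparib (SD 0.45). The combination overlapped the vehicle and ADU-S100 tumors and lay above the olaparib tumors, the highest of which had 1.27 where the lowest combination tumor had 1.32.

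**Figure D3:**
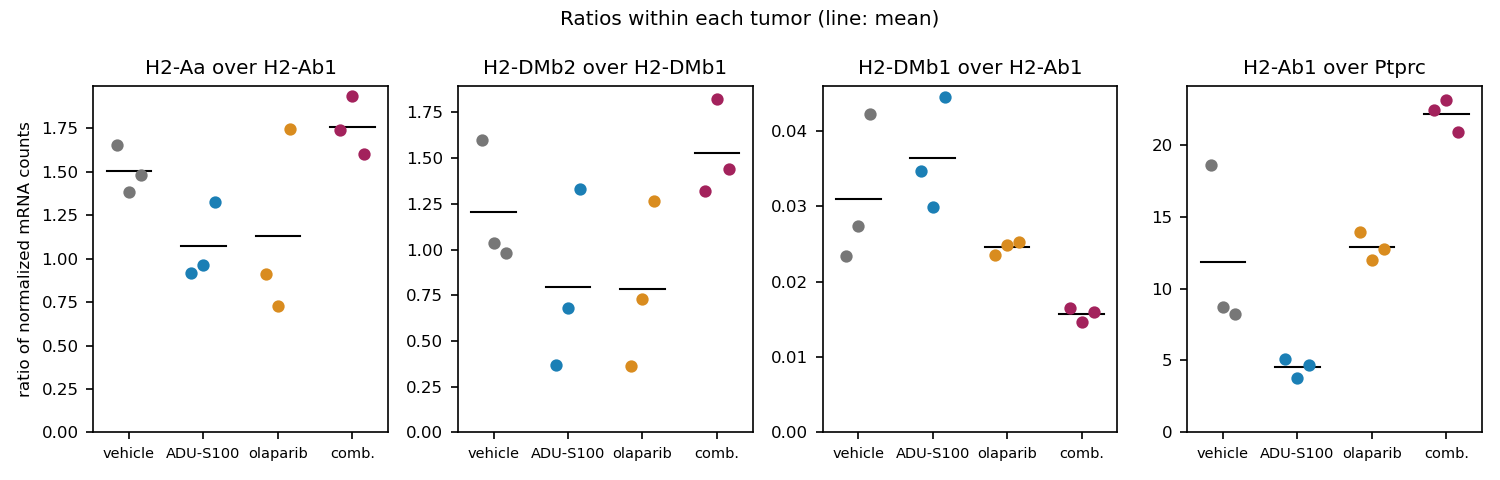
Ratios of normalized mRNA counts within each tumor (vertical axes, from 0) by treatment, with 1 point per tumor and a line at the mean of 3 tumors. H2-DMb1 over H2-Ab1 was lower and H2-Ab1 over Ptprc was higher in the 3 combination tumors than in all 9 others. Relative to Ptprc, 1.02% of 688 genes were higher in this way, and the share separated relative to H2-Ab1 was not computed.

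Relative to Ptprc (CD45, carried by all leukocytes), every log2 difference from ADU-S100 was higher by the same amount, since the log2 fold change of Ptprc itself in that comparison was -0.33 (limma adjusted p = 0.807). Ptprc ranged from 287 to 1003 normalized counts in ADU-S100, from 152 to 509.9 in vehicle and from 193 to 456 in olaparib tumors, and its log2 fold change in the combination was 0.55 against vehicle (limma adjusted p = 0.962). H2-Ab1 over Ptprc was 20.9 to 23.1 in the combination, 8.22 to 18.6 in vehicle, 12.0 to 13.9 in olaparib and 3.79 to 5.08 in ADU-S100 tumors, so that the ADU-S100 tumors were below and the combination tumors above all others. Of the 8 genes, 3 (H2-Aa, H2-Ab1 and Cd74) had their combination tumors above all others relative to Ptprc (1.02% of 688 genes), 5 had their ADU-S100 tumors below all others (1.6%), and the same 3 had both (0.581%). H2-Aa over Ptprc was 33.4 to 44.7 in the combination and 3.65 to 6.24 with ADU-S100. In limma on these ratios, Cd74 (3.00) and H2-Aa (3.03) passed against ADU-S100 (adjusted p = 0.0233 for both), and they were the 2 genes that passed of 688 (0.291%). Against vehicle the ratio differences ranged from 0.07 (H2-DMb1) to 1.35 (Cd74) with a median of 0.64, compared to 1.19 without the ratio, and 0 genes passed.

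Of 6 other class II pathway genes on the panel, 5 were above vehicle in the combination and 0 passed the adjusted threshold in limma, and against ADU-S100 3 were above and 3 below. With ADU-S100 alone all 6 were above vehicle (median 0.53), near the background of all genes, of which 78.2% were above vehicle with a median of 0.44. H2-Ob, a chain of the H2-DM inhibitor H2-DO and the fourth gene with the X and Y boxes, was highest with ADU-S100 (63.8 ± 30.9, SD, n = 3 tumors) and averaged 38.0 ± 11.3 in the combination. Cd4, the coreceptor that binds class II molecules, was 116 ± 12.0 in the combination, 108 ± 41.7 with olaparib, 59.2 ± 42.8 with ADU-S100 and 34.9 ± 12.5 in vehicle tumors, a log2 fold change of 1.75 against vehicle (limma adjusted p = 0.278).

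Ciita, the class II coactivator, was measured at 213 (1251), 354 (1270) and 225 (1539) in the combination. Vehicle tumors had 88.0, 198 and 132, ADU-S100 tumors 259, 96.3 and 113, and olaparib tumors 294, 168 and 81.9. The combination was above the vehicle tumors and overlapped both single treatments, with a log2 fold change of 0.96 against vehicle (standard error 0.56, limma adjusted p = 0.705). All 7 class II regulators tested were above vehicle in the combination, with a median of 0.62, and 0 had an unadjusted p below 0.05, where 65.3% of all genes were above vehicle with a median of 0.21 and 7.69% had such a p. H2-Aa over Ciita was 53.5 to 71.5 in the combination, 26.4 to 53.2 in vehicle, 19.7 to 52.3 in olaparib and 15.9 to 18.4 in ADU-S100 tumors, so that the highest vehicle and olaparib tumors almost reached the combination. H2-Ab1 over Ciita overlapped, at 27.6 to 41.1 in the combination and up to 32.2 in vehicle tumors.

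Of 10 interferon-γ axis genes tested, 8 were above vehicle in the combination and 3 had an unadjusted p below 0.05, where 65.3% and 7.69% of all genes were, among them Il12b (log2 fold change 1.79) and Socs1 (1.09). Il12b encodes a subunit of interleukin 12, which drives interferon-γ production, and Socs1 restrains interferon signaling. The limma adjusted p was 0.278 for Il12b and 0.472 for Socs1. Ifng itself did not pass the filter on low values, and was measured at 8.91 to 9.89 normalized counts in the combination, 6.14 to 11.9 in vehicle, 7.86 to 37.0 in ADU-S100 and 2.95 to 41.9 in olaparib tumors. Of 13 class I presentation genes, 11 were above vehicle with a median of 0.88, and 0 had an unadjusted p below 0.05.

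**Figure D4:**
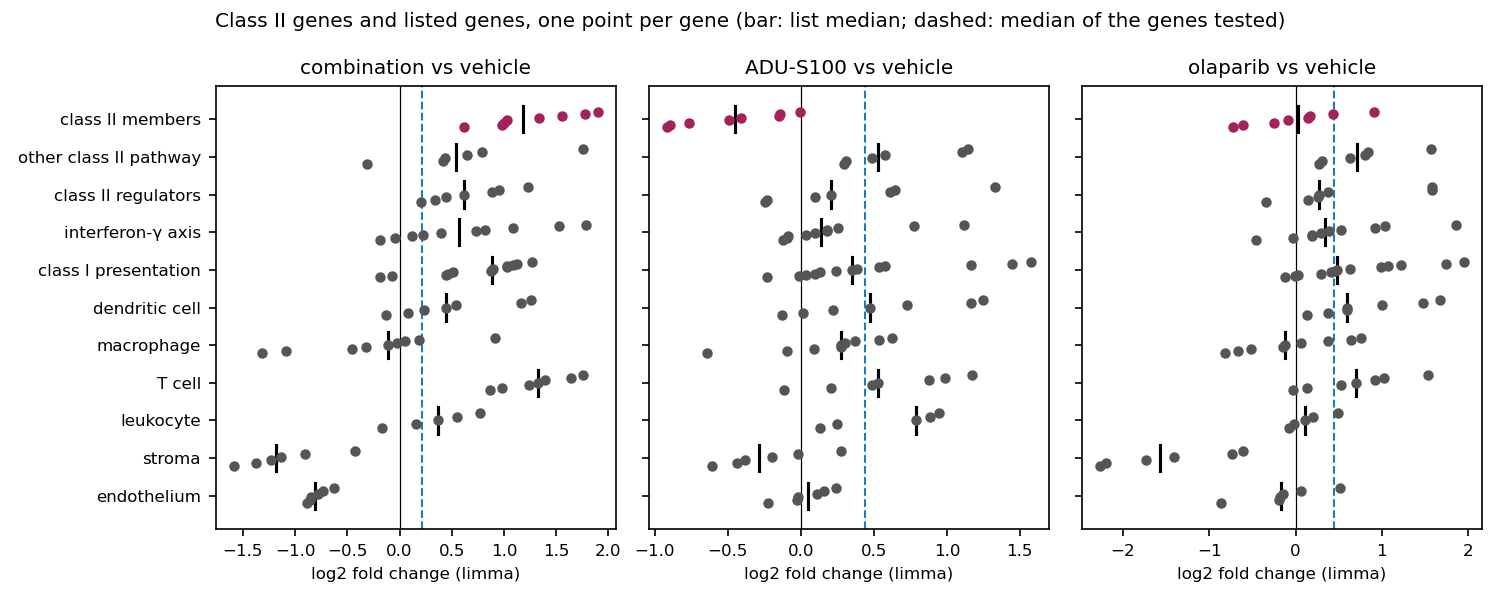
Log2 fold changes against vehicle (horizontal axes, limma) of the 8 class II genes and of listed genes, with 1 point per gene, a bar at each list's median and a dashed line at the median of the 689 genes. The class II genes had a median of 1.19 in the combination, -0.45 with ADU-S100 and 0.03 with olaparib, and stroma and endothelium genes were all below 0 in the combination.

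Markers of other cell types were read beside the class II genes. Their counts in the combination against vehicle stand beside 65.3% of all genes above vehicle and 7.69% with an unadjusted p below 0.05. All 7 T cell markers tested were above vehicle in the combination (median 1.33, 3 with an unadjusted p below 0.05), and their sum over 8 genes was 268 to 471 against 89.4 to 208 in vehicle, 159.8 to 385 in ADU-S100 and 91.9 to 629 in olaparib tumors, so that it overlapped both single treatments. The sum of 7 dendritic cell markers was 391 to 523 in the combination, 211 to 384 in vehicle, 254 to 469.98 in ADU-S100 and 229 to 922 in olaparib tumors. Of the 7, 6 were above vehicle in the combination with a median of 0.44, 1 had an unadjusted p below 0.05, and against olaparib the median was -0.06. That gene, Itgax (CD11c), was measured at 145 to 222 in the combination and 63.0 to 95.1 in vehicle tumors, with a log2 fold change of 1.16 (limma adjusted p = 0.347). Macrophage markers did not shift in one direction, with 3 of 9 above and 6 below vehicle and sums of 4928 to 6604 in the combination against 3689 to 6946. Of the 9, 1 had an unadjusted p below 0.05, Cd14, at 2460 to 3465 in the combination and 1132 to 2106 in vehicle tumors (log2 fold change 0.91, limma adjusted p = 0.553). Of 9 B cell markers 3 passed the filter, and the sum was 98.8 to 164 in the combination, 60.0 to 129 in vehicle, 116 to 268 in ADU-S100 and 58.9 to 503 in olaparib tumors. All 3 had lower mean log2 values in the combination than with either single treatment. Stromal and endothelial markers were below vehicle for 6 of 6 genes each in the combination (medians -1.18 and -0.81). With olaparib alone the stromal markers were also below vehicle for 6 of 6 genes (median -1.57), and the endothelial ones for 4 of 6 (median -0.17). No listed marker was at the floor of the table in any tumor. The part of these cells in the class II values was not tested.

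The combination tumors stand apart for 5 of the genes, a step that enters every correlation with them. Co-variation between the genes was therefore examined in the 9 tumors outside the combination. Over 28 pairs, the median Pearson r of log2 values was 0.53, compared to 0.37 over all pairs of the 689 genes. In exact permutation tests over 362880 arrangements, 12 pairs passed a Benjamini-Hochberg adjusted p of 0.05 by Pearson r and 12 by Spearman rho. The permutation test was not run over all pairs of genes, but r exceeded 0.5 in 14 of the 28 pairs and in 40.2% of all 237016 pairs. This count has no background, and the share above 0.5 was near that of all pairs. All 12 pairs that passed were among the 15 pairs of H2-Aa, H2-Ab1, H2-Eb1, Cd74, H2-DMa and H2-DMb1, where r ranged from 0.49 to 0.93. The highest r was that of H2-Ab1 with Cd74 (r = 0.93, rho = 0.93, exact permutation adjusted p = 0.0029 and 0.0114, n = 9), and it was 0.85 without the 2 tumors farthest from the median of H2-Ab1. H2-Aa with Cd74 had r = 0.90 and rho = 0.85 (exact permutation adjusted p = 0.0166 and 0.0243), and 0.70 without the 2 farthest.

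The chains of I-A, H2-Aa and H2-Ab1, had r = 0.81 and rho = 0.73 (exact permutation adjusted p = 0.0208 and 0.067). In these 9 tumors the relation rests on the 2 farthest, without which r was 0.50. As residuals around group means in all 12 tumors r was 0.83. On log2 values without subtraction, which include the combination, it was 0.87 in the 12 tumors without their 2 farthest. In the 9 tumors, H2-Ab1 with H2-Eb1, which encodes the beta chain of I-E, had r = 0.89 and rho = 0.82 (exact permutation adjusted p = 0.0166 and 0.0377). Without the 2 farthest tumors r was 0.84. The difference between these pairs was not tested, and their order turned over all 12 tumors (0.91 for the chains of I-A, 0.88 for H2-Ab1 with H2-Eb1). H2-DMa and H2-DMb1, the chains of H2-DM, had r = 0.84 and rho = 0.92 (exact permutation adjusted p = 0.0182 and 0.0114).

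The 13 pairs with H2-DMb2, Ctss or both had r between -0.47 and 0.48 in the 9 tumors, and 0 passed. This did not hold for H2-DMb2 over all 12 tumors, where its r was 0.85 with H2-Aa, 0.81 with H2-DMa and 0.76 with Cd74, and relative to Ptprc it was 0.87 with H2-Aa and 0.91 with H2-DMa. H2-DMb1 with H2-DMb2, the paralogs that share both boxes, had r = 0.11 and rho = 0.12 in the 9 tumors (exact permutation adjusted p = 0.922 and 0.905). Over all 12 tumors their r was 0.44, and it was 0.80 relative to Ptprc. In the 9 tumors, Ctss with H2-Eb1 had r = -0.47 (exact permutation adjusted p = 0.325), and 0.58 without the 2 farthest tumors. Single tumors weigh on these values: without the 2 farthest, the 13 pairs ranged from -0.49 to 0.80, and the other 15 from 0.13 to 0.96. The grouping of pairs was chosen after their values were seen. When the group means were subtracted in all 12 tumors, the same 13 pairs ranged from -0.33 to 0.55 and the other 15 from 0.50 to 0.93, so that they overlapped (H2-Aa with Ctss 0.55, H2-Aa with H2-Eb1 0.50). Over all 12 tumors without subtraction, the median r was 0.76 (all pairs of genes 0.30), which includes the step between the combination and the rest. Shared scaling enters all of these values except those relative to Ptprc. Of the 9 tumors outside the combination, 8 carry numbers that begin with 15. In the 9 tumors of that number series the median r was 0.70.

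**Figure D5:**
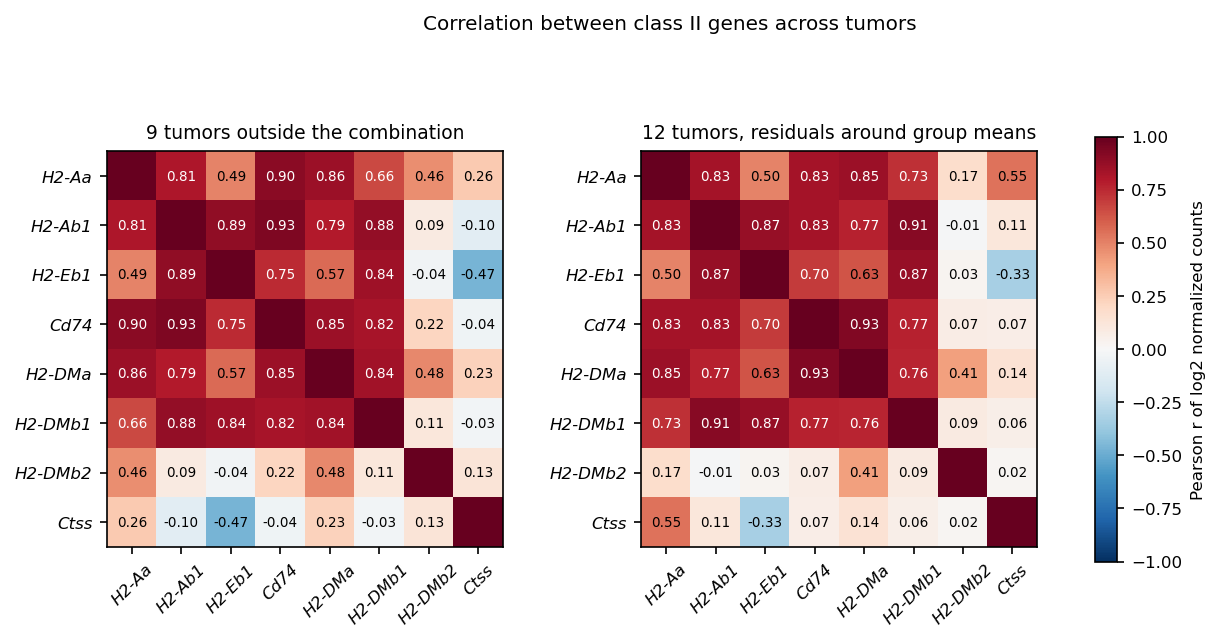
Pearson r between log2 normalized counts of the 8 genes (rows and columns; color and printed value), in the 9 tumors outside the combination (left) and as residuals around group means in 12 tumors (right). In both panels pairs among the first 6 genes lie at 0.49 or above and pairs with H2-DMb2 or Ctss between -0.47 and 0.55.

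Among the 681 other genes, those whose log2 values had the highest mean Pearson r with the 8 genes over 12 tumors were Cd5 (0.75), Ccr6 (0.74), Tnfsf10 (0.74), Lcp1 (0.73) and Selplg (0.72), where the median over these genes was 0.10. Cd5 is a T cell surface receptor, Ccr6 a chemokine receptor, Tnfsf10 the death ligand TRAIL, Lcp1 the leukocyte actin bundler L-plastin and Selplg the ligand of P-selectin. The combination and vehicle means were 956 ± 392 and 368 ± 212 for Tnfsf10 and 380.5 ± 34.7 and 199 ± 41.6 for Selplg (SD, n = 3 tumors each). Ciita was at rank 8 with 0.71. Its r was 0.93 with H2-DMb1, 0.88 with H2-Eb1, 0.85 with H2-Ab1, 0.83 with H2-DMa, 0.82 with Cd74, 0.69 with H2-Aa, 0.45 with H2-DMb2 and 0.24 with Ctss. These values are a description over tumors that share groups, and no test was made of them.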

How the data were processed

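The deposited values are an nCounter signal, not raw counts. The authors ran nSolver 4.0, which corrected each tumor for background and normalized it to the positive controls and to the geometric mean of housekeeping genes. Raw counts and control probes were not used here. Tumors were assigned to groups from the sample labels. Counts behind the values were recovered as whole multiples of one step per tumor (tolerance 0.01 of a count, at least 99.87% whole). When the step was started from the lowest value of each tumor instead, whole counts were found in 5 tumors, 1517 among them, and not in 7. Among the 7, tumors 1269, 1536, 1251, 1270 and 1539 hold values at the floor, from which this step could start. For these tumors it cannot decide whether the counts are whole. The recovered counts are used only for depth and for Poisson intervals, which cover counting error only. The floor is a value of 1.

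Genes with at least 20 in at least 3 tumors were kept (689 of 750). Limma 3.58.1 (R 4.3.3) was fitted on log2(normalized count + 1) with one mean per group over 12 tumors. P-values were adjusted by Benjamini-Hochberg across the genes that passed this filter, and 0.05 was the threshold. Fold changes on this scale understate changes at low counts. The fit was tested on simulated data. Correlations used exact permutations (9 tumors) or 100000 resamples (12 tumors), two-sided, adjusted over 28 pairs. The 8 genes and all gene lists were chosen with earlier results of these data known. The genes named in the text are the 8 genes, genes of the lists, and the 5 other genes with the highest mean r. Promoters were taken from RefSeq (GRCm38.p6). Alternatives were a pseudocount of 10, no filter or a filter at 50, median scaling, quantile normalization, ratios to Ptprc, an intensity trend, only the 2 groups compared, the number series as a block, the scaling factor (log2) as a covariate, the methods' Holm-Sidak comparison, and each tumor left out. The correlations outside the combination were added after seeing the data. Of the gene symbols, 736 were current in RefSeq, including the 8. The values of 1 listed gene are not reported here.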

Additional observations from a re-analysis of the deposited data

Results flagged for a closer look

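H2-DMb2 lay on opposite sides of the reference tumors for each drug, depending on the other drug, although neither single-drug difference passed the limma threshold. All 3 ADU-S100 tumors were below all 3 vehicle tumors, while all 3 combination tumors were above all 3 olaparib tumors, and likewise all 3 olaparib tumors were below the vehicle tumors and all 3 combination tumors above the ADU-S100 tumors. The interaction was 2.49 on the log2 scale, and it did not pass the adjusted threshold in limma (adjusted p = 0.346). Of the 8 genes it was the only one with this pattern, which 1.02% of all genes showed for ADU-S100 and 0.29% for olaparib. The lowest count behind it is the 8 recovered counts of the olaparib tumor 1517.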

How the results depend on the processing

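Of 1216 values of the 8 genes recomputed under the alternatives, 1169 kept their direction and their side of the threshold, 19 passed it with the same direction and 28 changed sign. All 176 values of the combination against vehicle kept both under these settings, which leave out the methods' comparison given below. Against ADU-S100, 1 of the 8 genes (H2-Aa) passed with a pseudocount of 10, the filter at 50, median scaling, quantile normalization or an intensity trend, and 2 (H2-Aa, Cd74) relative to Ptprc, and no other gene of the panel did. Against the other 3 groups, 1 passed with an intensity trend and 4 with the scaling factor as a covariate (12 of all genes). The methods' comparison called 6, 6 and 6 genes against vehicle, ADU-S100 and olaparib, and 2 against ADU-S100 after Benjamini-Hochberg adjustment. The median log2 fold change moved from 1.19 to 0.64 against vehicle and from -0.45 to -1.33 for ADU-S100 against vehicle, both relative to Ptprc. That of the interaction moved from 1.75 to 2.30 with median scaling, 2.29 relative to Ptprc and 2.39 with the covariate.

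With single tumors left out, 0 to 1 genes passed against ADU-S100 and against the other 3 groups (1 without tumor 1506), 0 to 2 against olaparib and 0 to 3 in the interaction (the highest without tumor 1521), and 0 in the comparisons with vehicle. Without tumor 1521, 54, 86 and 55 of all 689 genes passed against olaparib, in the interaction and for olaparib against vehicle. For the combination against vehicle, 4 of all genes passed with the covariate and 2 with only the 2 groups, none of them among the 8. The medians ranged from 1.04 to 1.45 against vehicle, 1.46 to 1.98 against ADU-S100, 1.20 to 1.52 against olaparib, 1.30 to 1.49 against the other 3 groups, 1.49 to 2.17 for the interaction, -0.95 to -0.19 for ADU-S100 and -0.29 to 0.23 for olaparib against vehicle.

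No value that changed sign had passed the threshold. H2-Eb1 in the combination against olaparib ranged from -0.38 to 0.90 with single tumors left out, and in the interaction from -0.23 to 1.09. For ADU-S100 against vehicle, H2-Eb1 ranged from -0.66 to 0.26, H2-DMb1 from -0.68 to 0.15 and Ctss from -0.41 to 0.24, and Ctss was 0.0034 with the number series as a block and 0.42 with the covariate. For olaparib against vehicle, with single tumors left out, H2-Aa ranged from -0.29 to 0.12, Cd74 from -0.29 to 0.49 and H2-DMb1 from -0.13 to 0.50. There, with median scaling, quantile normalization, the ratio to Ptprc and the covariate, Cd74 was -0.19, -0.0595, -0.0442 and -0.0743 and H2-DMb1 -0.21, -0.30, -0.0667 and -0.25, and with the covariate H2-Ab1 turned from 0.43 to -0.0123 and H2-Eb1 from 0.91 to -0.0250. The cause was not tested. The lowest depth, in the olaparib tumor 1517, limits H2-DMb2 and H2-DMb1 most (8 and 11 recovered counts). The planned count tests were not run, since the deposited values are not raw counts. No paired analysis was possible because the groups share no tumor numbers.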
